A study of Mus musculus with 3 samples.

Results

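The alpha and beta globin loci of the mouse were described here in DamID profiles of the nuclear lamina in fibroblasts. They were taken as 2 windows of 300 kb in mm9, the genome build named in the submitters' processing notes: the beta globin window on chromosome 7, 110850001 to 111150000, and the alpha globin window on chromosome 11, 32050001 to 32350000. A fragment, the stretch between neighbouring GATC sites, belonged to a window when its middle lay in it. The beta globin window held 762 fragments and the alpha globin window 693, together 1455 of the 6415372 fragments in each profile. DamID reads contact as methylation: a fusion of a protein with Dam, a bacterial methylase of the adenine in GATC, marks the DNA it touches, and marked fragments are amplified and sequenced. The cells were mouse embryonic fibroblasts (C57BL/6 strain, wild type), cells of connective tissue that are not of the red blood cell lineage. A murine retrovirus carried into them either unfused Dam, or Dam-Lap2b, or Dam-Lamin A, and the labels do not name the promoter of the cassette. Lamin A forms filaments under the nuclear envelope, and Lap2b sits in the inner nuclear membrane. Each of the 3 groups had 1 sample, so no value below has a replicate check and no p-value was computed. Every SD is the spread over bins or fragments along the sequence.

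Hemoglobin is built from alpha-like and beta-like globin chains, which are encoded at separate loci on different chromosomes and are expressed at high level in red blood cell precursors. The beta globin locus is a classic example of a tissue-specific cluster in closed chromatin, set among olfactory receptor genes, with a locus control region that acts on it in red blood cell precursors. The alpha globin locus lies in a region of broadly expressed genes, and its distal enhancers lie in introns of the neighbouring gene Nprl3. Lamina-associated domains (LADs) are long stretches of chromatin at the nuclear periphery, usually poor in genes and late in replication.

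In the order of the RefSeq gene table (GRCm38.p6), the beta globin cluster runs from Hbb-bt to Hbb-y. Hbb-bt and Hbb-bs encode adult beta chains, and Hbb-y and Hbb-bh1 embryonic ones. The 10 nearest protein-coding neighbours, 5 on each side, were all olfactory receptor genes, with Olfr67 next to Hbb-bt and Olfr66 next to Hbb-y. The alpha globin cluster runs from Hba-x, which encodes the embryonic zeta chain, to Hbq1a. Hba-a1 and Hba-a2 encode the adult alpha chain. Its neighbours on the Hba-x side were Nprl3, a subunit of the GATOR1 complex, Mpg, a DNA glycosylase, Rhbdf1, an inactive rhomboid, Snrnp25, a protein of the minor spliceosome, and Il9r, the receptor for interleukin 9. On the other side Sh3pxd2b, an adaptor protein of podosomes, came first. The table is on another build than the profiles, so bins below are given by position and were not assigned to single genes.

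Promoters are shown because Dam marks DNA only at GATC, so these letters set where a measured fragment starts and ends. They come from RefSeq (GRCm38.p6), run 5′ to 3′ on the strand of the gene and cover 250 bases before to 50 after its start, with GATC in capitals. Hbb-bs and Hbb-y are on the minus strand, and Hba-a1 and Hba-x on the plus strand.
Hbb-bs: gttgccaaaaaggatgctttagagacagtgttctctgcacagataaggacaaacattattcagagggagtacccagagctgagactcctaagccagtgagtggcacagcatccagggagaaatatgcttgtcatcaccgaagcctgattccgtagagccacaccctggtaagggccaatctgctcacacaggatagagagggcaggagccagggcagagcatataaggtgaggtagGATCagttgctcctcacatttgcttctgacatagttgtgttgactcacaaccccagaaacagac
Hbb-y: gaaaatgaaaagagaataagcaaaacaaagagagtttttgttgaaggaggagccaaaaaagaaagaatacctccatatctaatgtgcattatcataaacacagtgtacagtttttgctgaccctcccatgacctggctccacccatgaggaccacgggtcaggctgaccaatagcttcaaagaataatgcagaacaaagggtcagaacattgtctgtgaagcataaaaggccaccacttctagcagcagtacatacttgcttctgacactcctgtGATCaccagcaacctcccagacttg
Hba-a1: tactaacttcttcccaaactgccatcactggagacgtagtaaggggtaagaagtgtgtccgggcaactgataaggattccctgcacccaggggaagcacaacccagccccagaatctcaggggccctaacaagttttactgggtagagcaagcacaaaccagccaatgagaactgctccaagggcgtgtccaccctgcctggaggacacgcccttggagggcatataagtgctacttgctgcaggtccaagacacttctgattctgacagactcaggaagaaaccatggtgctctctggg
Hba-x: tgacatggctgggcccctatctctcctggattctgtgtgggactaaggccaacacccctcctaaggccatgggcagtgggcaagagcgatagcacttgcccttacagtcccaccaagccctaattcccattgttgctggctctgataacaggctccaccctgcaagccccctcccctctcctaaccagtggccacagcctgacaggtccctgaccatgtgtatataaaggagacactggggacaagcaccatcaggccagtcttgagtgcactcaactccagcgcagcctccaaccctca

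GATC reads the same on both strands. The table had promoters for 4 of 9 beta globin gene names that were looked up, and 2 of these, Hbb-bs and Hbb-y, held a GATC. The 9 names include Hbb-b1 and Hbb-b2 beside Hbb-bs and Hbb-bt, so they are not a count of genes in the locus. In Hbb-bs it began 14 bases before the start of the gene, and in Hbb-y at base 26 of the gene. It had promoters for all 5 alpha globin genes, and 0 of 5 held a GATC. Of all 32851 promoters in the table, 48.0% held one. The beta globin promoters had 43.3 to 49.7% G and C and 1 to 4 CpG each, and the alpha globin promoters had 49.3 to 57.3% and 2 to 13. The neighbours differed further, with a median of 38.7% in the 9 olfactory receptor promoters found and 56.2% in 4 promoters of the genes from Il9r to Nprl3. The beta neighbours came from both sides of the cluster and the alpha neighbours only from the Hba-x side. The median of all promoters was 52.7%. The promoters of Hba-a1 and Hba-a2 shared a run of 297 of 300 bases, so a read lying whole within it would not tell the copies apart. Whether any reads fell there was not examined. How the authors placed such reads is not given in the sources used here.

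Each profile gave 1 log2 ratio per fragment of the fusion to a reference. The mean over fragments was taken per 10 kb bin, where at least 5 fragments lay in it, and each window had 30 such bins. A ratio well above 0 stands for more fusion signal than reference signal. Fragments with equal recovered fusion and reference reads, also those with no reads, lie just above 0, at 0.0846 (Dam-Lamin A) and 0.0222 (Dam-Lap2b). Such values made up 7.52% and 7.83% of all fragments and count as above 0 below. The labels of the profiles and of the LAD lists went against each other over the genome. In the profile labelled Dam-Lamin A, the 16943 bins found only in the Dam-Lamin A list averaged −0.04, below the 0.37 of the 6436 bins found only in the Dam-Lap2b list. In the profile labelled Dam-Lap2b the order was the other way, with 0.46 and 0.04. Profiles and lists are therefore named by their labels, and both are given for every result.

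The beta globin window was in lamina-associated chromatin and the alpha globin window was not. The beta globin window averaged 1.45 ± 0.81 (SD over 30 bins) in the Dam-Lamin A profile and 1.40 ± 0.48 in the Dam-Lap2b profile. The alpha globin window averaged −1.35 ± 0.60 and −1.54 ± 0.59. Over all 255936 bins of the genome the means were 0.20 ± 1.31 and 0.29 ± 1.24, so the windows lay on opposite sides of both. The difference of beta minus alpha was 2.80 on the log2 scale in the Dam-Lamin A profile, a 6.97-fold higher ratio, and 2.94 in the Dam-Lap2b profile, a 7.68-fold higher ratio. Both differences were larger than the spread over bins within either window. The middle 100 kb of the beta globin window was lower, at 0.77 and 1.03.

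**Figure D1:**
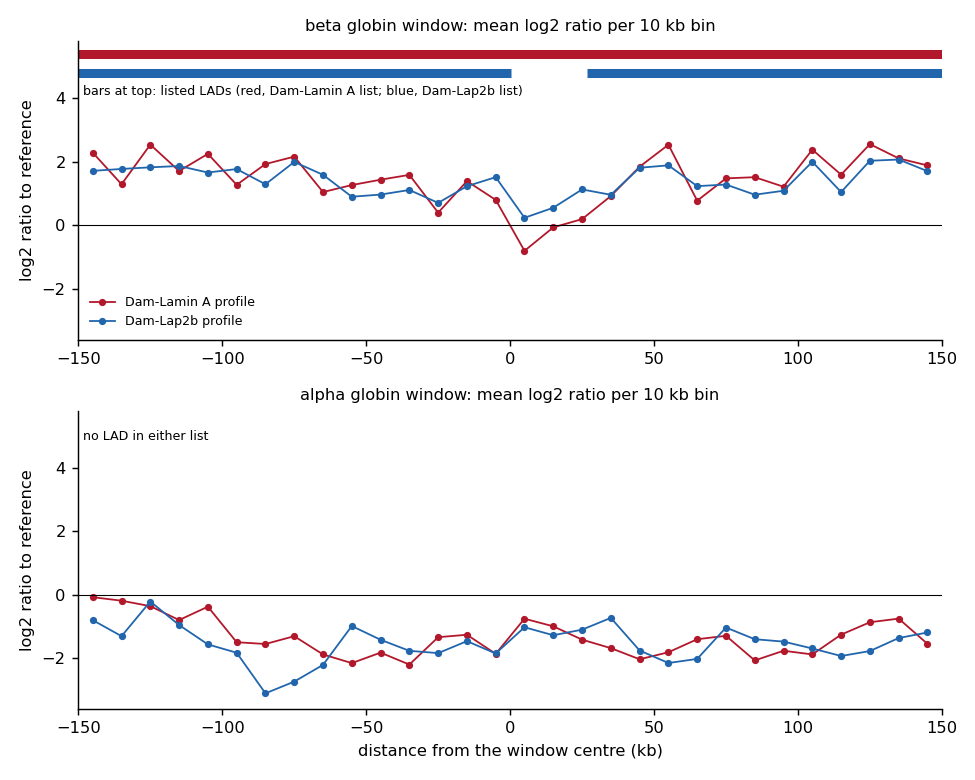
Mean log2 ratio per 10 kb bin (vertical axis) against distance from the window centre in kb for the beta globin window (top) and the alpha globin window (bottom), with listed LADs as bars. All 30 alpha globin bins lie below 0 in both profiles, and the beta globin bins lie above 0 except for 2 in the Dam-Lamin A profile just past the centre.

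Bin by bin the windows overlapped in the Dam-Lamin A profile, where 1 beta globin bin lay below the highest alpha globin bin and 6 alpha globin bins lay above that beta globin bin. They did not overlap in the Dam-Lap2b profile. In the beta globin window 28 of 30 bins were above 0 in the Dam-Lamin A profile, where 55.2% of all bins of the genome were. In the Dam-Lap2b profile 30 of 30 were, against 59.3% of all bins. In the alpha globin window 30 of 30 bins were below 0 in both profiles, against 44.8% of all bins in the Dam-Lamin A profile and 40.7% in the Dam-Lap2b profile. In the Dam-Lamin A profile 29 of 30 beta globin bins exceeded the highest alpha globin bin, and in the Dam-Lap2b profile 30 of 30 did.

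Set among 8555 windows of 300 kb laid end to end along all chromosomes, neither locus was at an extreme. The beta globin mean was above 83.6% of the windows in the Dam-Lamin A profile and above 77.9% in the Dam-Lap2b profile. The alpha globin mean was above 6.07% and 5.46%. The means of bins in both LAD lists over the genome were 1.29 and 1.34, close to those of the beta globin window.

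**Figure D2:**
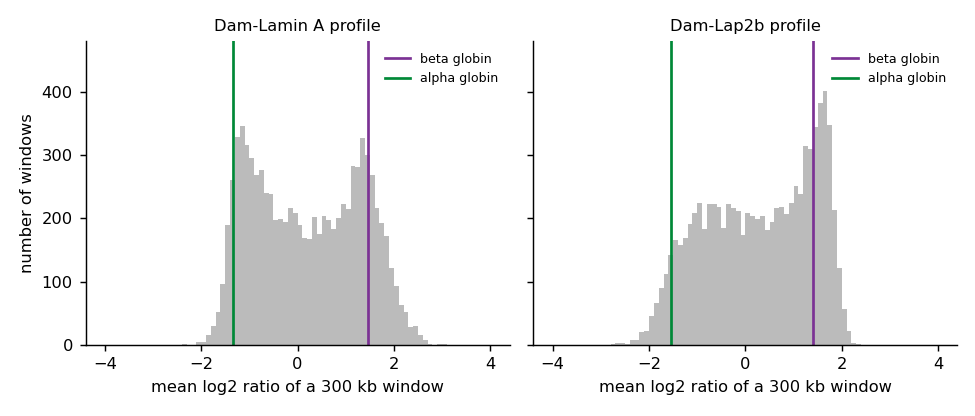
Number of windows (vertical axis) by the mean log2 ratio of each of 8555 windows of 300 kb (horizontal axis), in the Dam-Lamin A profile (left) and the Dam-Lap2b profile (right). Lines mark the beta globin window, at 1.45 and 1.40 in the upper part of each distribution, and the alpha globin window, at −1.35 and −1.54 in the lower part.

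The LAD lists gave the same state for each window with 1 exception. In the Dam-Lamin A list the beta globin window lay whole inside a LAD of 2.16 Mb, chromosome 7, 109838758 to 111997003, and 30 of 30 bins were in it, against 54.6% of all bins. In the Dam-Lap2b list 27 of 30 bins were in LADs, against 50.5% of all bins, and 273.5 kb or 91.2% of the window was covered. The uncovered part was a gap from 111000288 to 111026801, 26.5 kb long, between a LAD of 1158 kb on the lower-coordinate side and one of 318 kb on the other. Both lists together covered these 27 bins, against 47.9% of all bins. In the alpha globin window 30 of 30 bins were in neither list, against 42.9% of all bins. The alpha globin window lay in a stretch without LADs of 1.62 Mb in both lists, bounded in the Dam-Lamin A list at 31506229 and 33124601. The nearest Dam-Lamin A LADs were 544 kb before and 775 kb after the window, and the nearest Dam-Lap2b LADs 549 kb before and 776 kb after.

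Within the beta globin window the signal dipped just past the centre. In the Dam-Lamin A profile the highest bin was 111120001 to 111130000, at 2.56, and in the Dam-Lap2b profile the next one, 111130001 to 111140000, at 2.08. The lowest bin was the same in both profiles, 111000001 to 111010000, at −0.80 in the Dam-Lamin A profile and 0.24 in the Dam-Lap2b profile. The bin before it, from 110990001, was at 0.80 and 1.52. The bins after it, from 111010001 and 111020001, were at −0.06 and 0.20 in the Dam-Lamin A profile and at 0.56 and 1.13 in the Dam-Lap2b profile. The Dam-Lamin A profile thus changed sign at 111000000 and again at 111020000, while the Dam-Lap2b profile fell toward 0 without crossing it. The 3 bins from 111000001 to 111030000 were the 3 lowest of the window in the Dam-Lamin A profile, and of these the first 2 were the lowest in the Dam-Lap2b profile. Among all 216 bins of the enclosing 2.16 Mb LAD, the lowest Dam-Lamin A bin was the one from 111000001, since the lowest outside the window was −0.48. In the Dam-Lap2b profile bins outside the window reached −0.41, below every bin of the window.

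The bins from 111000001 to 111030000 were the ones of the window that the Dam-Lap2b list left out. In the Dam-Lap2b profile the last of them, from 111020001, was at 1.13, rank 11 from the lowest. Some bins in Dam-Lap2b LADs were lower, such as the one from 110970001 at 0.71. Over the 58 fragments in the gap of the Dam-Lap2b list, the Dam-Lamin A profile averaged −0.39 ± 1.32 (SD over fragments) and the Dam-Lap2b profile 0.50 ± 0.93. Over the other 704 fragments of the window they averaged 1.68 ± 1.37 and 1.47 ± 1.13. The gap was thus lower by 2.07 in the Dam-Lamin A profile and by 0.96 in the Dam-Lap2b profile. The LAD lists belong to the same samples as the profiles, so the drop is not independent of how the gap was defined. The drop was larger than the SD over fragments of either part in the Dam-Lamin A profile. In the Dam-Lap2b profile it was just above the SD in the gap and under that in the rest of the window. In the gap 30 of 58 fragments (51.7%) were below 0 in the Dam-Lamin A profile and 15 of 58 (25.9%) in the Dam-Lap2b profile. Fragments without reads are not in these counts, such as 111012244 to 111012279 with 0 recovered reads in all libraries, since they lie just above 0. Of all 10 kb bins of the genome, 44.8% and 40.7% had a mean below 0. Bins are another unit than fragments, and the share over all fragments was not computed, so these counts have no background. In the rest of the window 56 of 704 fragments and 45 of 704 were below 0. The gap was left out of the Dam-Lap2b list although the Dam-Lamin A profile was the lower there, the same crossing of labels as over the genome.

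Whole reads behind each ratio were recovered from the values. Each log2 value was taken as log2 of (fusion reads + 1)/(reference reads + 1) shifted by a constant of the profile. A single reference common to both profiles was set in the search. This form is not given in the sources used here, but whole reads that fit it were found for 99.9967% of fragments. The numbers given are the smallest whole reads that fit, so they are lower bounds. That the reference was the Dam-only sample is stated in no label or header used here. In the gap the Dam-Lamin A library had 696 recovered reads (exact 95% Poisson interval 645 to 750), the Dam-Lap2b library 1428 (1355 to 1504) and the reference 1074 (1011 to 1140). Such intervals cover counting error only, since amplified reads are not independent molecules. They also take the recovered numbers as exact, although these are lower bounds. Per kb, the Dam-Lamin A library had 26.4 reads in the gap and 62.5 in the rest of the window. The Dam-Lap2b library had 54.2 and 61.5, and the reference had 40.8 and 19.9. So in the Dam-Lamin A profile fewer fusion reads and more reference reads both went with the low ratio, and in the Dam-Lap2b profile the reference differed more than the fusion.

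The lowest values lay in the first part of the gap. In 2.5 kb bins the minimum of both profiles was 111007501 to 111010000, at −2.44 in the Dam-Lamin A profile and −0.58 in the Dam-Lap2b profile, with 57 Dam-Lamin A reads, 174 Dam-Lap2b reads and 222 reference reads. The neighbouring bin from 111010001 also had 222 reference reads, the most of any 2.5 kb bin between 110980001 and 111050000. Single fragments in the gap varied. The fragment from 111009750 to 111010460, 711 bp long, had 31 Dam-Lamin A reads, 134 Dam-Lap2b reads and 208 reference reads, and ratios of −2.62 and −0.61. The fragment from 111003152 to 111004698, 1547 bp long, had 10, 163 and 68 reads and ratios of −2.56 and 1.27, so the profiles had opposite signs there. The fragment from 111017387 to 111018295, 909 bp long, had 79, 84 and 36 reads and ratios of 1.20 and 1.22, so it was low in neither profile. These fragments were chosen after their values were seen.

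**Figure D3:**
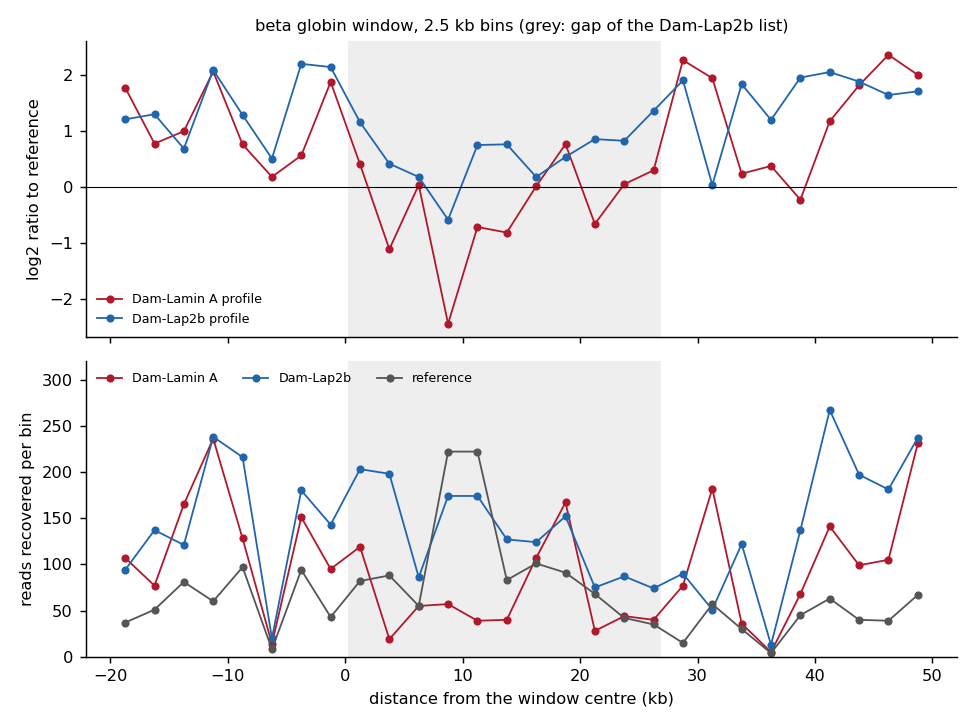
Mean log2 ratio (top) and recovered reads (bottom) per 2.5 kb bin against distance from the centre of the beta globin window in kb, with the gap of the Dam-Lap2b list in grey. The Dam-Lamin A profile drops to −2.44 and the Dam-Lap2b profile to −0.58 in the bin where reference reads reach 222.

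Other gaps of this kind had similar values. The Dam-Lap2b list had 118 other gaps of 20 to 40 kb that lay whole inside a Dam-Lamin A LAD and held at least 10 fragments. Their median was −0.39 in the Dam-Lamin A profile and 0.44 in the Dam-Lap2b profile, and 50.8% and 57.6% of them were lower than the gap in the beta globin window.

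All alpha globin bins were below 0, but the 2 profiles had their extremes at different places. In the Dam-Lamin A profile the highest bin was the first, 32050001 to 32060000, at −0.08, and the lowest was 32160001 to 32170000, at −2.21. In the Dam-Lap2b profile the highest was 32070001 to 32080000, at −0.22, and the lowest 32110001 to 32120000, at −3.11. The 5 bins from 32050001 to 32100000 were between −0.80 and −0.08 in the Dam-Lamin A profile, and from 32100001 on every bin was at −0.76 or lower. No bin of either profile changed sign in the window.

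The profiles disagreed most between 32110001 and 32130000. There the Dam-Lamin A profile was at −1.56 and −1.31 and the Dam-Lap2b profile at −3.11 and −2.74. The Dam-Lamin A library had 712 and 1725 reads, the Dam-Lap2b library 185 and 390, and the reference 1820 and 5752. The bin with 5752 reference reads had the most in either window. The opposite difference was largest from 32140001 to 32150000, at −2.16 and −0.99, with 137, 331 and 707 reads. With 1 library per fusion these local differences have no replicate check.

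Reads per library showed where the gap between the loci lay. The reference had 21.8 reads per kb in the beta globin window and 156.5 in the alpha globin window, a 7.18-fold higher density at alpha globin. The Dam-Lamin A library had 59.4 and 47.8 reads per kb, and the Dam-Lap2b library 60.9 and 43.7, so that the fusions were 1.24-fold and 1.39-fold denser at beta globin. On the log2 scale beta over alpha was −2.84 in the reference, 0.31 in the Dam-Lamin A library and 0.48 in the Dam-Lap2b library. In recovered reads summed over a window, most of the difference between the loci therefore stood in the denominator. The differences of 2.80 and 2.94 given above come from means over bins of log2 ratios, so these parts do not add up to them. Against the mean of its own library, the reference was at 0.36 times in the beta globin window and 2.59 times in the alpha globin window. Dam-Lamin A was at 1.08 and 0.87 times, and Dam-Lap2b at 1.02 and 0.73 times.

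The same held when the windows were set among 8551 windows of 300 kb by reads per kb. For the reference 18.3% of windows had fewer reads than the beta globin window and 96.4% fewer than the alpha globin window. For Dam-Lamin A the shares were 69.1% and 44.6%, and for Dam-Lap2b 54.1% and 21.5%. Reference reads per 10 kb bin ran from 68 through a median of 171 to 633 in the beta globin window, and from 330 through 1128 to 5752 in the alpha globin window. Dam-Lamin A reads ran from 189 through 580.5 to 1208 and from 86 through 446 to 1725. Dam-Lap2b reads ran from 295 through 583.5 to 1056 and from 143 through 349.5 to 1595. The fusions overlapped broadly between the windows, and the reference overlapped less. Recovered as 0 reference reads were 27.3% of fragments at beta globin and 4.76% at alpha globin. In the 1 Mb before and after the window the shares were 31.1% and 22.8% for beta globin, and 15.2% and 8.04% for alpha globin. The share over all fragments was not computed. Since recovered numbers are lower bounds, these shares are upper bounds.

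**Figure D4:**
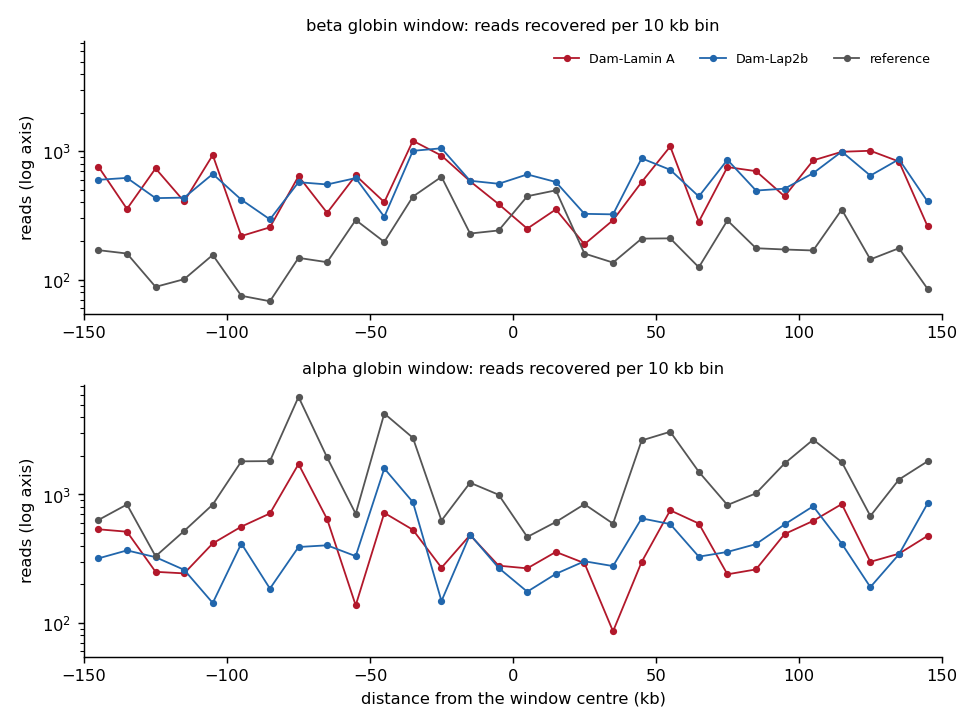
Recovered reads per 10 kb bin on a log axis against distance from the window centre in kb, for Dam-Lamin A, Dam-Lap2b and the reference taken as common to both, in the beta globin window (top) and the alpha globin window (bottom). The reference lies mostly below both fusions at beta globin (median 171 reads) and above them at alpha globin (median 1128 reads).

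The surroundings of the loci were compared over 1 Mb to each side. Beside the beta globin window, the lower-coordinate side averaged 2.06 ± 0.44 (SD over 100 bins) in the Dam-Lamin A profile and 1.76 ± 0.35 in the Dam-Lap2b profile. The other side averaged 1.37 ± 0.74 and 1.12 ± 0.60. The window minus both sides together was −0.26 in the Dam-Lamin A profile and −0.04 in the Dam-Lap2b profile, each under the SD over flank bins. With 2 Mb to each side the differences turned to 0.73 and 0.88. Without the bins in the gap they were −0.07 and 0.045, and for the middle 100 kb alone −0.94 and −0.41. The beta globin window thus stood between its sides, with the higher signal on the lower-coordinate side. On that side 100 of 100 bins were in LADs of both lists, and on the other 99 in the Dam-Lamin A list and 94 in the Dam-Lap2b list.

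The alpha globin window was below both 1 Mb sides. The lower-coordinate side averaged 0.12 ± 1.02 in the Dam-Lamin A profile and 0.17 ± 0.80 in the Dam-Lap2b profile, and the other side −0.74 ± 1.01 and −0.70 ± 0.98. The window minus both sides was −1.03 in the Dam-Lamin A profile, under the SD of 1.10 over flank bins, and −1.27 in the Dam-Lap2b profile, above the SD of 1.00. With 500 kb to each side these differences were −0.34 and −0.72. The nearest 500 kb on the higher-coordinate side averaged −1.45 in the Dam-Lamin A profile, below the window, and −1.32 in the Dam-Lap2b profile, above it. The 1 Mb sides held LADs, with 41 and 40 of 100 bins on the lower-coordinate side and 23 and 22 on the other in the Dam-Lamin A and Dam-Lap2b lists. Against only the other 131 bins of the same stretch without LADs, which averaged −0.88 ± 0.83 and −0.81 ± 0.67, the window was lower by a difference of −0.46 and −0.73. Of those bins 18 and 16 were above 0. The window made up 30 of the 161 bins of that stretch. The 10 lowest bins of the stretch included none of the window in the Dam-Lamin A profile and 5 in the Dam-Lap2b profile. The alpha globin window was thus below 0 in all 30 bins of both profiles, but in the Dam-Lamin A profile the deepest bins of the stretch lay outside it.

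**Figure D5:**
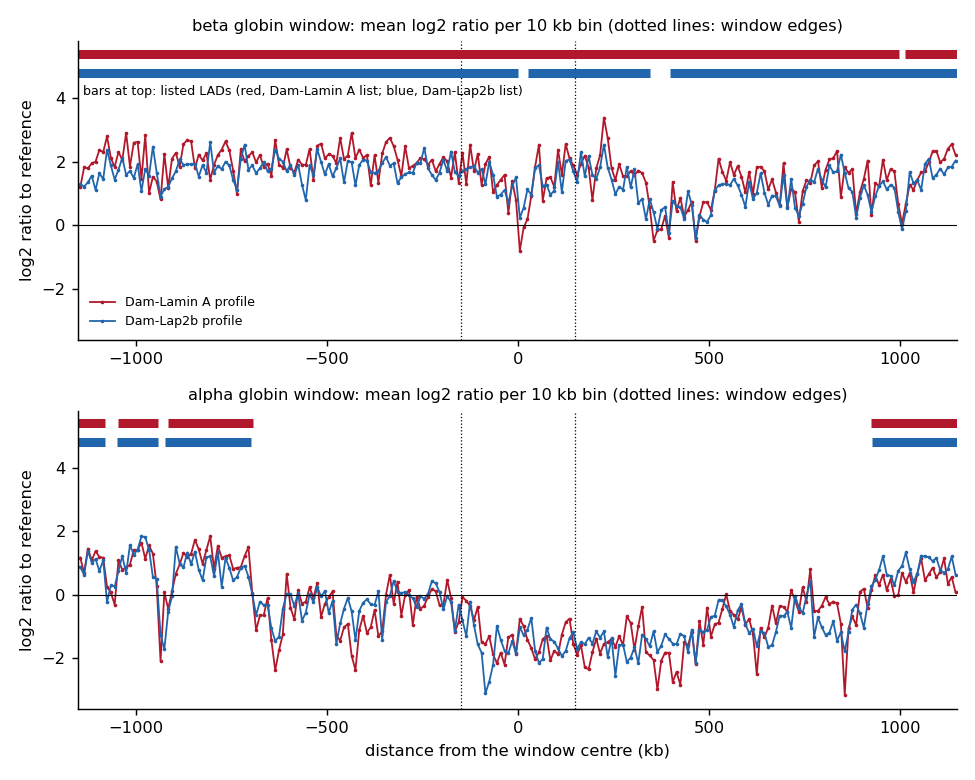
Mean log2 ratio per 10 kb bin against distance from the window centre in kb, with 1 Mb to each side of the beta globin window (top) and the alpha globin window (bottom), and listed LADs as bars. The beta globin window lies inside a 2.16 Mb LAD of the Dam-Lamin A list, and the alpha globin window lies in a 1.62 Mb stretch without LADs.

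The profiles were set against each other within the loci. Subtracting the Dam-Lap2b bin from the Dam-Lamin A bin gave a mean of 0.05 ± 0.51 (SD over 30 bins) at beta globin and 0.19 ± 0.67 at alpha globin, against −0.09 ± 0.63 over all bins. Each was under its spread over bins. The Dam-Lamin A profile was the higher in 19 of 30 beta globin bins and 17 of 30 alpha globin bins, where it was the higher in 44.2% of all bins. The beta globin difference changed sign with the weight given to fragments, from 0.05 to −0.38 when each counted by its length.

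Fragment length moved with this difference. In the beta globin window, Dam-Lamin A minus Dam-Lap2b averaged 0.45 over 328 fragments under 200 bp, 0.05 over 370 fragments of 200 to 1000 bp and −1.04 over 64 fragments over 1000 bp. Over the whole genome the same classes gave 0.23, −0.11 and −0.82. In the alpha globin window they gave 0.34, 0.14 and 0.17, so no class had the sign seen in long fragments at beta globin. Across the 30 bins of a window, the correlation of the difference with the log2 median fragment length was −0.48 at beta globin and −0.07 at alpha globin, as a description of bins that share their libraries. Fragments of 200 to 1000 bp by themselves gave −0.41 (Dam-Lamin A) and 0.38 (Dam-Lap2b) in the gap, and 1.75 and 1.61 in the rest of the beta globin window, so the dip was present in that class in both profiles. The median fragment was 253.5 bp long at beta globin and 311 bp at alpha globin, against 258 bp over all fragments, and each 10 kb held 25.4 and 23.1 fragments on average.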

How the data were processed

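DamID profiles of Dam-Lamin A and Dam-Lap2b and a list of LADs for each were used, 1 sample per group; the Dam-only sample was not analysed here. Column 4 of the profiles holds log2 values as deposited by the authors, and the LAD lists hold start and end with no score. The submitters' processing notes name Bowtie and mm9, without role or version; counting, normalization and the LAD caller are not given in the sources used here. Coordinates are counted from 1, taking starts as BED starts.

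Fragments were assigned by their middle, averaged in 10 kb bins with at least 5 fragments, and a bin was in a LAD by its middle. Whole reads were recovered for 99.9967% of fragments, with reference reads + 1 up to 5000, and constants of 0.0846 and 0.0222, the most frequent value of each profile. Their totals are 139459595 (Dam-Lamin A), 151512722 (Dam-Lap2b) and 153447720 (reference); no count test was run. Recovery and binning were tested on simulated data, whose read depth was not set to that of either window. Named bins are the highest and lowest of each window and those beside a change of sign. Python 3.11.15, numpy 2.4.6, pandas 2.3.3 and scipy 1.17.1 were used. The windows, gene lists and tests were chosen with earlier results of these data known. Comparisons of length classes, enclosing stretches, similar gaps and reads were added after the data were seen.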

Additional observations from a re-analysis of the deposited data

Results flagged for a closer look

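Over all chromosomes, bins found only in the Dam-Lamin A list minus bins found only in the Dam-Lap2b list gave −0.42 in the Dam-Lamin A profile and 0.42 in the Dam-Lap2b profile. The contrast had opposite signs in the 2 groups, and with 1 sample each the difference was not tested. The gap in the beta globin window was 1 place of this kind, left out of the Dam-Lap2b list and lower in the Dam-Lamin A profile, at −0.39 against 0.50.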

How the results depend on the processing

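Of 232 values of 24 results under alternatives, 220 kept their sign and stayed within the spread over bins, or within the exact 95% binomial interval for shares. Some of them could not differ, so this count overstates how far the results were tried. Every window bin held at least 10 fragments, so other minimum numbers of fragments gave the main values again. Subtracting the genome mean from a profile could not change a difference within it. Leaving out the beta globin gap could not change an alpha globin value. Beta minus alpha ran from 2.32 to 3.06 in the Dam-Lamin A profile and from 2.46 to 3.33 in the Dam-Lap2b profile. Dam-Lamin A minus Dam-Lap2b at beta globin turned to −0.38 with fragments weighted by length, −0.0075 with fragments of 200 to 1000 bp, −0.083 with summed reads and −0.25 in the middle 100 kb, and at alpha globin to −0.11 in the middle 100 kb. The beta globin window minus its flanks turned to 0.73 and 0.88 in the Dam-Lamin A and Dam-Lap2b profiles with 2 Mb to each side. Values that kept their sign but moved over 1.5 times were the alpha globin window minus its flanks with 500 kb to each side (−0.34 and −0.72), and for the middle 100 kb the beta globin mean in the Dam-Lamin A profile (0.77) and the beta globin window minus its flanks (−0.94 and −0.41). Differences near 0 at beta globin also moved by that factor under other settings. Chosen after seeing the data, leaving out the bins in the gap turned the Dam-Lap2b value to 0.045 and moved the share of bins above 0 in the Dam-Lamin A profile to 100%. The share of beta globin bins in Dam-Lap2b LADs became 70% in the middle 100 kb and 100% when LADs were merged across gaps under 30 kb, also chosen after seeing the data. The beta globin mean was above 82.6% of windows on autosomes alone in the Dam-Lamin A profile. The cause was not tested, except where fewer bins or a closed gap make it plain. No paired analysis was possible because each group had 1 sample, and no replicate could be left out.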
